A study of Equus caballus with 45 samples.

Results

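The genes described here encode enzymes of antioxidant defence, measured by RNA sequencing in equine mesenchymal stromal cells (MSC) and in synoviocytes, chondrocytes and macrophages that received MSC conditioned medium (MSC-CM). They were chosen by symbol: SOD1, SOD2, SOD3, HMOX1, NQO1, GCLC, GCLM, TXNRD1, SRXN1 and GSTM3. The symbols of 9 of these 10 genes were found among the 20881 protein coding genes in both count tables, and TXNRD1 was not analysed here. Levels are given in CPM, the count of a gene per 1000000 counts on all genes of its library.

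Superoxide dismutases turn superoxide into hydrogen peroxide, with SOD1 in the cytosol, SOD2 in mitochondria and SOD3 outside the cell. HMOX1 breaks down haem, NQO1 reduces quinones, GCLC and GCLM form the enzyme that limits glutathione synthesis, SRXN1 restores over-oxidised peroxiredoxins and GSTM3 joins glutathione to electrophiles. HMOX1, NQO1, GCLC, GCLM, TXNRD1 and SRXN1 are well-known targets of the transcription factor NRF2, while SOD2 is a well-known target of NF-κB. In joint disease, oxidants from inflamed synovium and from chondrocytes exposed to cytokines are known to damage cartilage matrix.

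Bone marrow MSC of 3 horses, labelled PC, 99 and 92, were left untreated, were given poly I:C, a TLR3 agonist, or 2′3′-cGAMP, a STING agonist, or carried the label CpG, for which no further description was given. Each of these 4 conditions had 1 library per horse (n = 3). The agonists were given for 2 hours, at 10 ng/mL by the sample labels and at 10 µg/mL by the design text. Synoviocytes, chondrocytes and blood monocyte-derived macrophages each came from 1 horse. They received the cytokines IL-1β and TNF-α, by the labels 10 ng/mL of each on macrophages and more on synoviocytes. The paper's methods instead give the same dose on both. With the cytokines came MSC-CM at 1 part to 3 parts of medium for 24 hours, followed by 24 hours in fresh medium. The MSC-CM came from untreated MSC (resting MSC-CM), TLR3-activated MSC (TLR-MSC-CM) or STING-activated MSC (STING-MSC-CM) of the 3 horses PC, ORC and AG1, with 1 library per horse and medium (n = 3). The labels AG1, ORC and PC were taken here to name the horse that gave the medium. Titles of libraries without MSC-CM also carry ORC or PC, so this reading is not certain. On this reading, the replicates of a joint cell type differed in the horse that gave the medium, not in the horse that gave the cells. Cell type and culture cannot be told apart. Each joint cell type also had 1 library with no addition and 1 with cytokines alone.

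The 45 libraries held between 23525704 and 54103873 counts. Macrophages had the leukocyte and macrophage markers CD68 (median 3715 CPM), PTPRC (1296) and MRC1 (3111), as well as the T cell gene CD3E (80.0). MSC carried THY1 (median 305 CPM), as did synoviocytes (324), while LEPR, a marker of bone marrow stroma, had a median of 0 in MSC. Synoviocyte markers were mixed. VCAM1 had a median of 1153 CPM in synoviocytes and 247 CPM in chondrocytes. CD55 (0.499 CPM) and HAS1 (0.821 CPM) were low in synoviocytes and below their medians in MSC (9.09 and 1.16 CPM). CDH11 was lower in synoviocytes (279 CPM) than in chondrocytes (473 CPM). The cartilage collagen gene COL2A1 had a median of 0.0534 CPM in the libraries labelled chondrocytes, so that defining marker was nearly absent there, and ACAN, the core protein of aggrecan, had a median of 15.1 CPM. In bulk RNA, fewer cells of a type and less RNA per cell cannot be told apart.

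Among the superoxide dismutases, SOD2 and SOD3 differed more between the joint cell types than SOD1, as the plot of levels by library shows. SOD2 with resting MSC-CM was at 3563, 1209 and 3870 CPM in chondrocytes with medium of horses AG1, ORC and PC. It was at 1040, 563 and 981 CPM in synoviocytes and at 463, 701 and 651 CPM in macrophages with media of the same horses in that order. All 3 chondrocyte libraries lay above all 6 others. The share of all genes without overlap between cell types was not counted, for SOD2 or for the members that follow. Untreated MSC of horses 92, 99 and PC had 49.2, 288 and 170 CPM of SOD2, below every joint cell library, though the MSC were counted in a table of their own and no test was made across the tables.

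**Figure D1:**
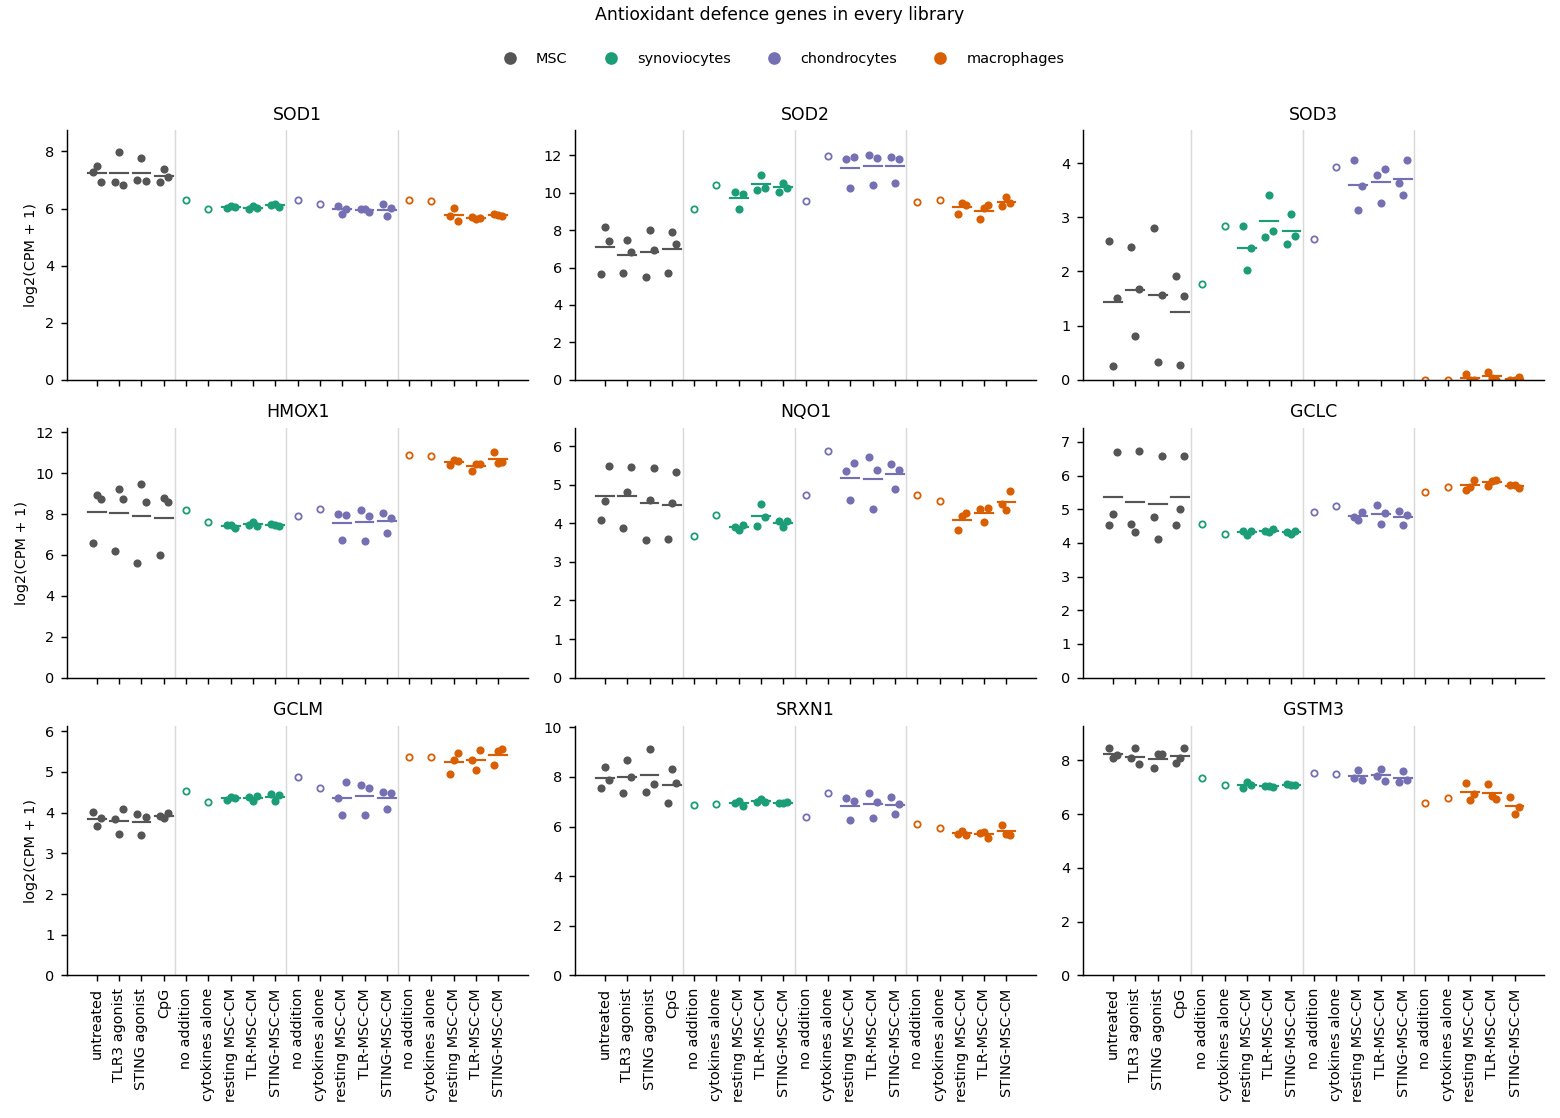
Level of the 9 genes as log2(CPM + 1) (vertical axis, each panel on its own scale) in the 45 libraries by cell type and condition (horizontal axis), with filled points for conditions with 3 libraries, bars at their means and open circles for conditions with 1 library. SOD2 reached 4165 CPM in chondrocytes and HMOX1 reached 2082 CPM in macrophages.

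SOD2 was higher in chondrocytes than in synoviocytes with resting MSC-CM, with a log2 difference of 1.72 (SE 0.43, edgeR adjusted p = 0.00501), and lower in macrophages than in chondrocytes, with a log2 difference of -2.26 (SE 0.43, adjusted p = 7.00e-05). Between macrophages and synoviocytes the log2 difference was -0.54 (SE 0.41, adjusted p = 0.248). With cytokines and resting MSC-CM, the chondrocyte level thus stood apart. The other joint cell types were neighbours in the order and did not differ beyond their spread. With no addition, 1 library each, SOD2 was at 743 CPM in chondrocytes, 729 CPM in macrophages and 571 CPM in synoviocytes. These single values were not tested.

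SOD3, the secreted enzyme, had its highest levels in chondrocytes as well. With resting MSC-CM it was at 15.7, 7.78 and 11.0 CPM in chondrocytes and at 6.16, 3.08 and 4.41 CPM in synoviocytes with media of AG1, ORC and PC, and the groups did not overlap. The log2 difference was 1.31 (SE 0.33, adjusted p = 0.00562). Without the chondrocyte library with AG1 medium it was 1.02, with an adjusted p of 0.0530. Macrophages with resting MSC-CM held 3 counts of SOD3 over their 3 libraries, against 407 counts in synoviocytes and 1119 in chondrocytes. Scaled to CPM that is a ratio of 157 (95% exact interval 53.2 to 763) for synoviocytes over macrophages and 406 (139 to 1972) for chondrocytes over macrophages, intervals that cover counting error only. In untreated MSC of horses 92, 99 and PC, SOD3 was at 4.90, 0.194 and 1.83 CPM.

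SOD1 varied least between the joint cells. It was at 67.6, 55.6 and 62.0 CPM in chondrocytes, 63.8, 66.8 and 65.2 CPM in synoviocytes and 52.1, 63.2 and 46.8 CPM in macrophages with resting media of AG1, ORC and PC. It was lower in macrophages than in synoviocytes, with a log2 difference of -0.30 (SE 0.09, adjusted p = 0.00633). Leaving out the macrophage library with PC medium gave -0.22 and an adjusted p of 0.0548. The log2 difference was -0.09 (SE 0.09, adjusted p = 0.543) for chondrocytes against synoviocytes and -0.21 (SE 0.09, adjusted p = 0.0503) for macrophages against chondrocytes. The latter passed the threshold when the ORC library of either cell type was left out (-0.27 without the chondrocyte library and -0.34 without the macrophage library). With no addition, 1 library each, SOD1 was at 77.1 CPM in macrophages, 78.0 CPM in synoviocytes and 77.4 CPM in chondrocytes. Untreated MSC had 154, 179 and 121 CPM, above every joint cell library.

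HMOX1, the inducible haem oxygenase, was the member most concentrated in macrophages. With resting MSC-CM it was at 1367, 1611 and 1524 CPM in macrophages, 173, 177 and 156 CPM in synoviocytes and 252, 107 and 246 CPM in chondrocytes with media of AG1, ORC and PC. Every macrophage library lay above every other joint cell library. The log2 difference was 3.13 (SE 0.32, adjusted p = 7.19e-09) against synoviocytes and 2.89 (SE 0.32, adjusted p = 2.26e-08) against chondrocytes. Between chondrocytes and synoviocytes it was 0.24 (SE 0.29, adjusted p = 0.629). Untreated MSC spread from 94.1 CPM in horse 92 to 487 CPM in horse 99, with 426 CPM in horse PC.

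NQO1 had its highest level in chondrocytes among joint cells, at 39.8, 23.5 and 46.5 CPM with resting media of AG1, ORC and PC, against 14.1, 13.3 and 14.7 CPM in synoviocytes and 13.3, 17.3 and 18.2 CPM in macrophages. The chondrocyte group did not overlap either of the others. The log2 difference was 1.37 (SE 0.26, adjusted p = 0.000461) against synoviocytes, and macrophages were lower than chondrocytes by -1.19 on the log2 scale (SE 0.26, adjusted p = 0.000304). Macrophages and synoviocytes differed by 0.18 (SE 0.26, adjusted p = 0.539). With no addition, 1 library each, NQO1 was at 25.9 CPM in both chondrocytes and macrophages and at 11.7 CPM in synoviocytes.

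The subunits of glutamate-cysteine ligase, GCLC for catalysis and GCLM for its regulation, were both highest in macrophages among the joint cells. Untreated MSC of 92, 99 and PC had 22.4, 28.2 and 103 CPM of GCLC, so 1 horse lay above every macrophage library, and 15.1, 11.8 and 13.6 CPM of GCLM. GCLC with resting media of AG1, ORC and PC was at 47.0, 50.0 and 57.4 CPM in macrophages, 26.5, 24.5 and 29.0 CPM in chondrocytes and 19.6, 17.8 and 19.2 CPM in synoviocytes. No groups overlapped, and the log2 difference was 1.42 (SE 0.12, adjusted p = 3.33e-10) for macrophages against synoviocytes, 0.94 (SE 0.12, adjusted p = 2.51e-07) for macrophages against chondrocytes and 0.48 (SE 0.12, adjusted p = 0.00521) for chondrocytes against synoviocytes. GCLM was at 29.7, 38.4 and 43.0 CPM in macrophages, 19.4, 14.4 and 26.1 CPM in chondrocytes and 18.9, 19.7 and 19.6 CPM in synoviocytes. Macrophages were above both, by 0.91 on the log2 scale against synoviocytes (SE 0.20, adjusted p = 0.000290) and by 0.88 against chondrocytes (SE 0.20, adjusted p = 0.000406). Chondrocytes and synoviocytes differed in GCLM by 0.03 (SE 0.20, adjusted p = 0.985).

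SRXN1, or sulfiredoxin, was lowest in macrophages, at 51.2, 56.2 and 50.2 CPM with resting media of AG1, ORC and PC. Synoviocytes had 124, 129 and 112 CPM and chondrocytes 142, 75.9 and 131 CPM, and no macrophage library reached either range. The log2 difference of macrophages was -1.24 (SE 0.20, adjusted p = 8.34e-06) against synoviocytes and -1.16 (SE 0.20, adjusted p = 1.95e-05) against chondrocytes, whereas chondrocytes against synoviocytes gave -0.08 (SE 0.20, adjusted p = 0.856). In untreated MSC of 92, 99 and PC, SRXN1 was at 186, 335 and 236 CPM.

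GSTM3 belongs to a multigene family, so reads may be split between near-identical copies and its values are uncertain. It was at 162, 200.2 and 152 CPM in chondrocytes, 125, 144 and 134 CPM in synoviocytes and 142, 90.6 and 107 CPM in macrophages with resting media of AG1, ORC and PC. Macrophages were lower than chondrocytes by -0.62 on the log2 scale (SE 0.17, adjusted p = 0.00242). Against synoviocytes the log2 difference was -0.28 for macrophages (SE 0.17, adjusted p = 0.148), and -0.46 with an adjusted p of 0.0272 without the macrophage library with AG1 medium. For chondrocytes against synoviocytes it was 0.34 (SE 0.17, adjusted p = 0.161). Untreated MSC had 349, 271 and 294 CPM.

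Counted together with resting MSC-CM, 4 of 9 members (SOD2, SOD3, NQO1 and GCLC) were higher in chondrocytes than in synoviocytes and 0 were lower. Of the 16584 genes tested, 10.3% were higher and 11.1% lower. In macrophages against synoviocytes 3 members were higher (HMOX1, GCLC and GCLM) and 3 lower (SOD1, SOD3 and SRXN1), where 35.8% of all genes were higher and 34.4% lower. Against chondrocytes, macrophages had the same 3 members higher and 5 lower (SOD2, SOD3, NQO1, SRXN1 and GSTM3), beside 35.8% and 33.9% of all genes. With 70.2% and 69.6% of all genes called in either direction in the macrophage comparisons, the number of members called there was near the background. The plot of cell type differences gives each value with its error.

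**Figure D2:**
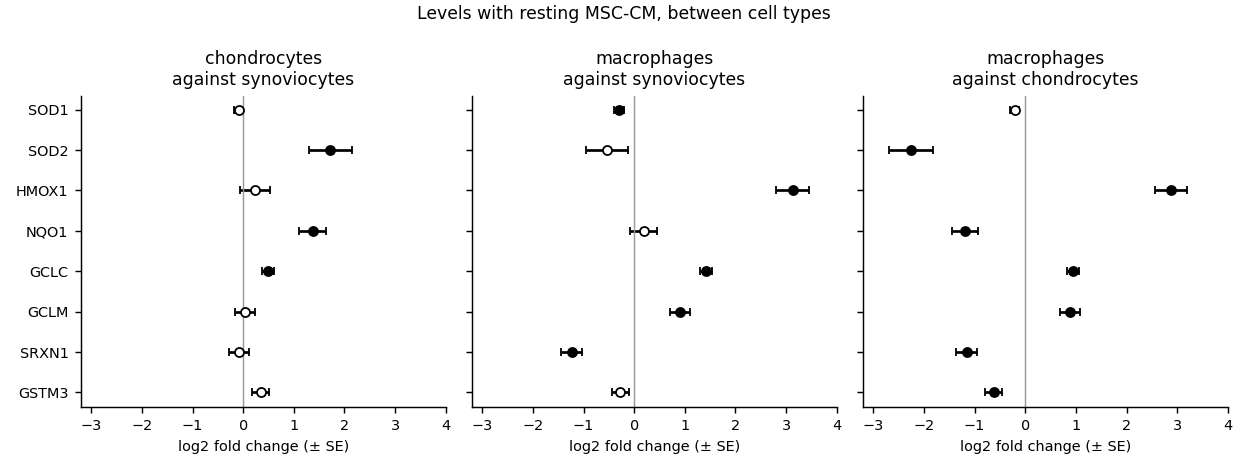
Log2 differences in level (horizontal axis) between the joint cell types with resting MSC-CM, with standard errors as bars, for 8 genes. Filled points had an adjusted p under 0.05 in edgeR's quasi-likelihood test, n = 3 libraries per cell type. SOD3, with 3 counts in macrophages, is left out, and HMOX1 has the largest value shown, 3.13 for macrophages against synoviocytes.

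The effect of the cytokines could be described from 1 library per condition only, with no test. SOD2 was at 743 CPM in chondrocytes with no addition (95% Wilson interval 733 to 754, counting error only) and at 4011 CPM with cytokines alone (3991 to 4031), a ratio of 5.40. In synoviocytes it was at 571 and 1389 CPM, a ratio of 2.43. In macrophages SOD2 was at 729 and 782 CPM, so the ratio was far smaller there than in either other cell type. By the labels the cytokine dose was lower on macrophages than on synoviocytes, whereas the paper's methods give the same dose on both. If the labels hold, dose and cell type cannot be told apart.

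SOD3 and NQO1 moved the same way in the same libraries. SOD3 was at 5.06 CPM without and 14.3 CPM with cytokines in chondrocytes (ratio 2.83) and at 2.40 and 6.20 CPM in synoviocytes (ratio 2.59). NQO1 was at 25.9 and 57.8 CPM in chondrocytes (ratio 2.23) and at 11.7 and 17.5 CPM in synoviocytes (ratio 1.49). SRXN1 had 82.5 and 161 CPM in chondrocytes, a ratio of 1.96, and 115 and 121 CPM in synoviocytes. HMOX1 went in opposite directions, with 293 and 195 CPM in synoviocytes (ratio 0.665) and 236 and 298 CPM in chondrocytes (ratio 1.26).

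A ratio of at least 2 was reached by 3 of 9 members in chondrocytes and by 2 of 9 in synoviocytes, all of them higher with cytokines. Among all genes with at least 1 CPM in either library, 5.18% were at least 2-fold higher in chondrocytes (11.6% in either direction) and 3.02% in synoviocytes (5.63%). In macrophages, with the lower dose by the labels, 0 of the 8 members with at least 1 CPM passed 2-fold. Their ratios lay between 0.882 and 1.14, and 0.983% of all genes passed 2-fold in either direction. SOD3 had 0 counts in both of these macrophage libraries, which allows up to 3 counts in each. The plot of ratios in single libraries shows all 9 genes.

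**Figure D3:**
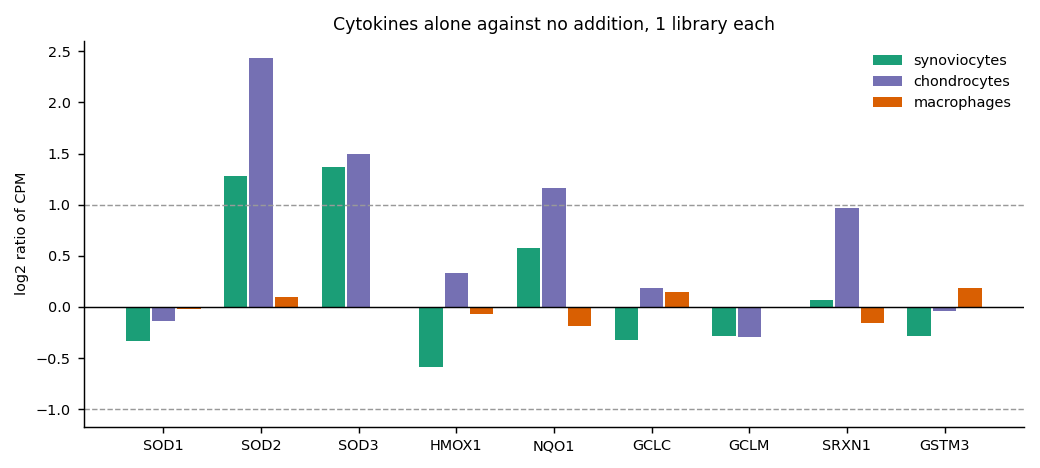
Log2 ratio of CPM with cytokines alone to CPM with no addition (vertical axis) for the 9 genes in the 3 joint cell types, from 1 library per condition. Dashed lines mark a 2-fold ratio, and SOD3 in macrophages, at 0 counts, has no bar. The tallest bar is SOD2 in chondrocytes, a ratio of 5.40.

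Resting MSC-CM was given on top of the cytokines, and its mean over 3 libraries can be set beside the library with cytokines alone. No member with at least 1 CPM differed by 2-fold or more between them in any joint cell type, where 0.423% of all genes did in synoviocytes, 1.46% in chondrocytes and 1.72% in macrophages. In synoviocytes, the library with cytokines alone was above all 3 resting libraries for 4 of 9 members and for 24.2% of all genes. It was below all 3 for 2 members, a share that was not counted over all genes. SOD2 was 1 of the 4, at 1389 CPM against a resting mean of 861 ± 260.3 CPM (SD, n = 3). In chondrocytes, the library with cytokines alone was above all 3 resting libraries for 6 of 9 members and for 31.5% of all genes. Among the members were NQO1 (57.8 CPM against 36.6 ± 11.9) and SOD2 (4011 CPM against 2880.3 ± 1456). In macrophages it held for 5 of the 8 members with at least 1 CPM and for 22.5% of all genes. SOD1 was 1 of these members (76.1 CPM against 54.0 ± 8.37).

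Whether activation of MSC changed what their medium did to the joint cells was asked by comparing TLR-MSC-CM and STING-MSC-CM with resting MSC-CM and with each other. These comparisons share libraries within a cell type, and the horse of the medium was not in the model unless a block is named. By edgeR 0 members and 0 of all genes (0%) had an adjusted p under 0.05 in any of them, and DESeq2 called 0 members. In synoviocytes 10.0% of all genes had an unadjusted p under 0.05 with TLR-MSC-CM (4.94% with a higher value), as did 3 of 9 members, all with a higher value. With STING-MSC-CM 7.60% of all genes and 1 member did, and between the activated media 2.02% of all genes and 0 members.

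SOD2 in synoviocytes was at 1149, 2013 and 1235 CPM with TLR-MSC-CM of AG1, ORC and PC and at 1073, 1491 and 1240 CPM with STING-MSC-CM, against 1040, 563 and 981 CPM with resting MSC-CM. Neither group overlapped the resting libraries. The share of all genes without overlap was not counted for these comparisons of media in any joint cell type. The lowest resting value and the highest TLR value both came from medium of horse ORC. The log2 fold change with TLR-MSC-CM was 0.75 (SE 0.23, adjusted p = 0.494), and 0.47 without the ORC library with TLR-MSC-CM. With STING-MSC-CM it was 0.54 (SE 0.23, adjusted p = 0.634), and 0.30 without the ORC resting library.

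SOD3 and NQO1 were the other members with an unadjusted p under 0.05 in synoviocytes with TLR-MSC-CM. SOD3 was at 5.26, 9.69 and 5.75 CPM with TLR-MSC-CM of AG1, ORC and PC, against 6.16, 3.08 and 4.41 CPM with resting MSC-CM. These groups overlapped, and the log2 fold change was 0.57 (SE 0.27, adjusted p = 0.496), or 0.27 without the ORC library with TLR-MSC-CM. NQO1 was at 14.2, 21.6 and 17.0 CPM against 14.1, 13.3 and 14.7 CPM, which gave 0.32 on the log2 scale (SE 0.12, adjusted p = 0.494), and 0.17 without that library. The ORC library thus carried the highest value of all 3 genes. Over the 9 members the median log2 fold change was 0.10, beside 0.00070 over all genes. Over the 13 comparisons of media or agonists the members' median ran from -0.17 to 0.17. The lowest was in MSC with CpG and the highest in macrophages between STING- and TLR-MSC-CM.

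HMOX1 and the glutathione genes of synoviocytes stayed within narrow ranges. HMOX1 was at 178, 196 and 172 CPM with TLR-MSC-CM and 179, 175 and 172 CPM with STING-MSC-CM, against 173, 177 and 156 CPM with resting MSC-CM. GCLC lay between 17.8 and 20.2 CPM and GCLM between 18.4 and 20.9 CPM in all 9 libraries, with overlapping groups. Between the activated media, SRXN1 and GSTM3 had groups that did not overlap, though the gaps were small. SRXN1 was at 121.78 to 124.27 CPM with STING-MSC-CM and 126.78 to 138.89 CPM with TLR-MSC-CM. GSTM3 was at 133.3 to 137.26 CPM and 128.72 to 132.42 CPM. Neither gene had an unadjusted p under 0.05 by edgeR, and the share of all genes without overlap was not counted.

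In chondrocytes no member had an unadjusted p under 0.05 with either medium, where 0.559% (TLR-MSC-CM) and 0.909% (STING-MSC-CM) of all genes did, nor between the activated media (0.811%). The members' log2 fold changes ran from -0.01 to 0.11 with TLR-MSC-CM and from -0.08 to 0.07 with STING-MSC-CM. SOD2 was at 4165, 1356 and 3772 CPM with TLR-MSC-CM of AG1, ORC and PC and at 3929, 1452 and 3525 CPM with STING-MSC-CM. The ORC libraries were the lowest in each medium, and the log2 fold change with TLR-MSC-CM, 0.11, had an SE of 0.53.

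In macrophages 2 of 8 members tested had an unadjusted p under 0.05 with STING-MSC-CM, where 4.76% of all genes did, and 0 with TLR-MSC-CM, where 2.13% did. GSTM3 was at 99.3, 63.5 and 75.2 CPM with STING-MSC-CM of AG1, ORC and PC, against 142, 90.6 and 107 CPM with resting MSC-CM and 138, 101 and 93.0 CPM with TLR-MSC-CM. STING-MSC-CM gave the lower value with medium of each of the 3 horses, although the groups overlapped because AG1 medium gave the highest level in each. The log2 fold change against resting MSC-CM was -0.53 (SE 0.19, adjusted p = 0.907). With the horse as a block, it was -0.53 (SE 0.08, adjusted p = 0.0214), a fit in which 0.531% of all genes were called.

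NQO1 in macrophages was at 21.6, 19.4 and 27.5 CPM with STING-MSC-CM of AG1, ORC and PC, against 13.3, 17.3 and 18.2 CPM with resting MSC-CM. These groups did not overlap. The log2 fold change was 0.48 (SE 0.17, adjusted p = 0.907, and 0.108 with the horse as a block). It was 0.32 without the PC library with STING-MSC-CM.

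Between the activated media in macrophages, HMOX1 and GSTM3 had unadjusted p-values under 0.05, where 6.60% of all genes did. HMOX1 was at 2082, 1455 and 1499.9 CPM with STING-MSC-CM and at 1120, 1412 and 1388 CPM with TLR-MSC-CM of AG1, ORC and PC, which did not overlap. The log2 difference was 0.39 (SE 0.17, adjusted p = 0.736), and 0.23 without the AG1 library with STING-MSC-CM. GSTM3 differed by -0.44 (SE 0.19, adjusted p = 0.736, and 0.0275 with the horse as a block). SOD2, at 629, 885 and 705 CPM with STING-MSC-CM and 390, 584 and 650.3 CPM with TLR-MSC-CM, differed by 0.48 (SE 0.24, adjusted p = 0.736) and in the fit with the block by 0.51 (SE 0.11, adjusted p = 0.0397). That fit called 2.23% of all genes. SOD1 also had groups that did not overlap, at 54.5, 54.3 and 52.8 CPM with STING-MSC-CM and 51.1, 48.6 and 49.6 CPM with TLR-MSC-CM. The share of all genes without overlap was not counted.

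Whether the change with a medium differed between joint cell types was tested by an interaction term, and 0 members and 0 of all genes had an adjusted p under 0.05 in 6 such comparisons. The 1 member with an unadjusted p under 0.05 was GSTM3 with STING-MSC-CM in macrophages against synoviocytes, where 4.38% of all genes had one, with a log2 difference between the changes of -0.54 (SE 0.24, adjusted p = 1.00).

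**Figure D4:**
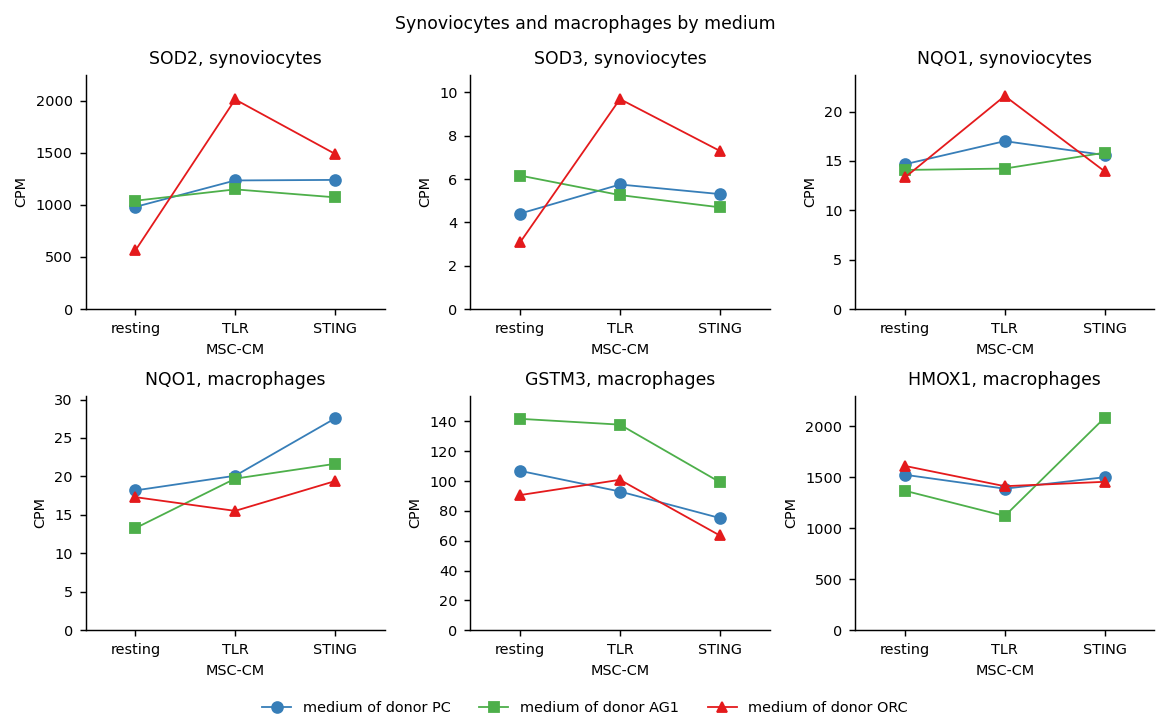
CPM of SOD2, SOD3 and NQO1 in synoviocytes and of NQO1, GSTM3 and HMOX1 in macrophages (vertical axis) with resting, TLR- and STING-MSC-CM (horizontal axis), with lines joining libraries that received medium of the same horse. GSTM3 in macrophages is lowest with STING-MSC-CM in each line, at 63.5 to 99.3 CPM, and SOD2 in synoviocytes is highest with TLR-MSC-CM of horse ORC, at 2013 CPM.

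In MSC themselves no member had an adjusted or unadjusted p under 0.05 after any agonist, where 1.15% of all genes had an unadjusted p under 0.05 after the TLR3 agonist, 2.10% after the STING agonist, 0.242% between the agonists and 0.305% with CpG. HMOX1 was at 72.3, 590 and 428 CPM after the TLR3 agonist and 48.4, 713 and 382 CPM after the STING agonist in horses 92, 99 and PC, against 94.1, 487 and 426 CPM untreated. After either agonist it was lower in horse 92 and higher in horse 99. Its log2 fold change with the STING agonist was 0.19 (SE 1.03), and -0.20 (SE 0.24, adjusted p = 0.860) with the horse as a block. SOD2 was at 51.8, 175 and 115 CPM after the TLR3 agonist and 44.6, 255 and 124 CPM after the STING agonist, against 49.2, 288 and 170 CPM untreated. It was lower in all 3 horses after the STING agonist, and the fit with the block gave a difference of -0.27 on the log2 scale (SE 0.16, adjusted p = 0.649). With CpG, HMOX1, NQO1 and SRXN1 were lower in all 3 horses, and in that fit their adjusted p-values were 1.00. The members' log2 fold changes ran from -0.50 to 0.20 with the TLR3 agonist, from -0.26 to 0.31 with the STING agonist and from -0.50 to 0.07 with CpG.

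The summed CPM of 12 macrophage markers was 12.8 to 17.0 in untreated MSC, 11.1 to 139 after the TLR3 agonist and 55.1 to 325 after the STING agonist, nearly all of it CD68, while the median of PTPRC in MSC was 0. Its part in the members' values was not tested.

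Members also differed between the horses of origin. The test for this was added after the values were seen and kept the condition in the model. Its replicates were the libraries of 1 horse under different conditions. The p-values thus measure the spread between those libraries beyond the effect of the condition. Horse and culture or batch of medium cannot be told apart by it, in any cell type. In MSC the test used the 9 libraries without CpG, while the ranges given include the CpG libraries. In MSC 7 of 9 members differed between horses by edgeR's quasi-likelihood test, where 53.8% of all genes did. GCLC lay between 94.3 and 105 CPM in the 4 libraries of horse PC and between 16.5 and 31.4 CPM in the 8 others (adjusted p = 2.88e-05). NQO1 ran from 10.9 to 16.0 CPM in horse 92, from 22.0 to 27.2 CPM in horse 99 and from 39.5 to 43.6 CPM in horse PC (adjusted p = 0.000178), with no overlap between horses. HMOX1 lay between 48.4 and 94.1 CPM in horse 92 and between 382 and 713 CPM in the other horses (adjusted p = 8.43e-05). SOD3 was at 2.78 to 5.95 CPM in horse 92, 1.83 to 2.20 CPM in PC and 0.194 to 0.756 CPM in 99, so the horses with the highest SOD3 and the highest SOD2 (175 to 288 CPM, in 99) were not the same. GCLM (adjusted p = 0.106) and GSTM3 (adjusted p = 0.426) did not pass the test.

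In chondrocytes, all from 1 horse, the libraries labelled ORC, read as medium of that horse, stood apart from those of AG1 and PC. By the same test 8 of 9 members differed with the horse that gave the medium, where 40.1% of all genes did, and SOD1 did not (adjusted p = 0.185). SOD2 was at 1209 to 1452 CPM in the 3 libraries with ORC medium and at 3525 to 4165 CPM in the 6 others, a ratio of means of 0.352 (adjusted p = 6.92e-09). HMOX1 was at 101 to 131 CPM against 224 to 297 CPM (ratio 0.444, adjusted p = 1.94e-07). NQO1 had 19.8 to 28.9 CPM against 39.8 to 51.6 CPM, and SRXN1 75.9 to 90.9 CPM against 119 to 164 CPM. The ranges of the 8 members that passed did not overlap between ORC and the other media, which was also so for 41.9% of all genes with at least 1 CPM. GSTM3 was the 1 member higher with ORC medium, at 195 to 205 CPM against 145 to 170.4 CPM (ratio 1.28, adjusted p = 0.000127).

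**Figure D5:**
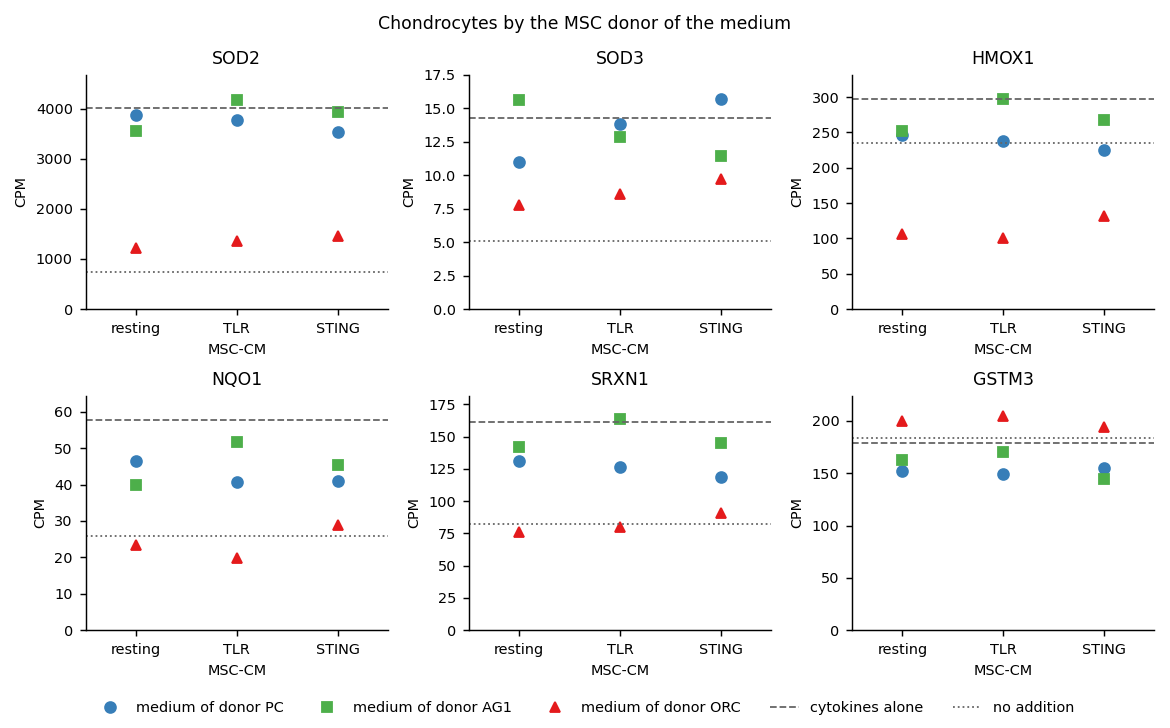
CPM of 6 genes (vertical axis) in chondrocytes with resting, TLR- and STING-MSC-CM (horizontal axis), 1 point per library, with colour and shape for the horse that gave the medium, a dashed line at the library with cytokines alone and a dotted line at the one with no addition. SOD2 with ORC medium, 1209 to 1452 CPM, lies between the library with no addition (743 CPM) and the one with cytokines alone (4011 CPM).

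The ORC libraries can also be read beside the chondrocyte libraries without MSC-CM. SOD2 with ORC medium lay above no addition (743 CPM) and far below cytokines alone (4011 CPM). HMOX1 with ORC medium was below both (236 and 298 CPM), and NQO1, at 19.8 to 28.9 CPM, spanned the level with no addition (25.9 CPM). Other genes moved with the ORC libraries. VCAM1, an adhesion molecule induced by cytokines, was at 18.8 to 30.1 CPM with ORC medium, at 234 to 281 CPM with the others, at 215 CPM with no addition and at 265 CPM with cytokines alone. SOX9, the transcription factor of cartilage cells, was at 42.1 to 67.6 CPM with ORC medium, at 7.53 to 10.6 CPM with the others, at 48.8 CPM with no addition and at 8.95 CPM with cytokines alone. Of 10 chondrocyte markers, SOX9 and COL11A1, a minor cartilage collagen, were higher with ORC medium than with the others, COMP was lower (15.6 to 20.2 CPM against 23.2 to 35.0 CPM) and 7 overlapped, among them ACAN (12.5 to 21.0 CPM against 7.07 to 16.0 CPM). COMP and ACAN were at 170 and 101 CPM with no addition, far above the ORC libraries. The summed CPM of the 10 markers was 485 to 621 with ORC medium against 158 to 244 with the others, most of it COL11A1 (410 to 512 against 117 to 189 CPM), and that of 12 macrophage markers was 13.0 to 15.9 against 14.9 to 40.7. Their part in the members' values was not tested.

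The same media did not separate the members in synoviocytes, where 0 of 9 differed by horse with edgeR, 0% of all genes did, and DESeq2's likelihood ratio test called 3 genes and 0 members. In macrophages 3 of 8 members differed, where 15.4% of all genes did: GSTM3 (adjusted p = 0.00380), SOD2 (adjusted p = 0.00673) and GCLM (adjusted p = 0.0339). GSTM3 was at 99.3 to 142 CPM with AG1 medium and at 63.5 to 107 CPM with the others, and SOD2 was at 389.8 to 629 CPM with AG1 medium.

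Further genes of the same pathways were taken from 8 lists holding 89 genes of the tables. With TLR-MSC-CM in synoviocytes 10 of 82 tested had an unadjusted p under 0.05 and a higher value and 4 a lower one, beside 10.0% of all genes, but 0 passed the adjusted test. FTH1, the heavy chain of the iron store ferritin, differed by 0.60 on the log2 scale (SE 0.14, adjusted p = 0.494), and SQSTM1, an autophagy adaptor that frees NRF2, one of 0.30 (SE 0.09, adjusted p = 0.494). With STING-MSC-CM in macrophages 4 of 85 were higher and 1 lower at that p, beside 4.76% of all genes, and SLC7A11, the cystine importer that feeds glutathione synthesis, had the smallest p (log2 fold change 0.86, SE 0.24, adjusted p = 0.907). In chondrocytes 0 of 81 passed at an unadjusted p with either medium against resting MSC-CM, where 0.559% and 0.909% of all genes did.

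In level, 18 of 88 listed genes were higher and 15 lower in chondrocytes than in synoviocytes with resting MSC-CM, where 21.4% of all genes were called. GPX3, the secreted glutathione peroxidase, was higher by 2.90 on the log2 scale, and PRDX2, a peroxiredoxin, by 1.53. Of 10 genes of glutathione supply and recycling, 2 were higher and 6 lower in chondrocytes, among them GSS, which completes glutathione, with -0.76. In macrophages against synoviocytes 39 of 88 were higher and 32 lower, where 35.8% of all genes were higher and 34.4% lower, the background also for the lists that follow. Of 8 genes of haem and iron handling 6 were higher in macrophages, such as BLVRB, which reduces biliverdin, by 2.94, and FTL, the ferritin light chain, by 3.29, while the iron exporter SLC40A1 was lower by -4.74. Of 9 genes of NADPH supply 6 were higher in macrophages and 2 lower, and GSR, which recycles glutathione, was higher by 3.66.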

How the data were processed

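Per the submitters' notes, cutadapt 1.12 was used for trimming, STAR for alignment to EquCab3.0, HTSeq 0.11.0 for counting and DESeq2 for comparisons. The deposited tables hold raw counts per gene, 1 table for MSC and 1 for the joint cells, and 41 of the highest values were in rounded form. Of the 20881 genes, 3970 are listed by Ensembl identifier and were not named.

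The members and the pathway lists were chosen with earlier results of these data known. All members are named. From each list up to 3 genes per comparison with the smallest p under 0.05 (adjusted for levels) could be named. CPM was taken over all genes of a library. Each cell type was fitted with edgeR 4.0.16 in R 4.3.3 (quasi-likelihood, TMM, at least 10 counts over the 9 libraries, Benjamini-Hochberg over all genes, threshold 0.05), without the donor, and levels and interactions were fitted over 27 libraries. SOD3 in macrophages fell under the count filter. The test was checked on simulated counts. Alternatives were DESeq2 1.42.0, other scalings and filters, the replicate block and leaving out each library. Whether libraries of 1 MSC donor deviate together was checked by correlating their deviations from the condition means across genes. The median correlation was 0.744 for MSC, 0.349 for chondrocytes, 0.147 for macrophages and 0.0124 for synoviocytes. Between different donors it was -0.469, -0.447, -0.0957 and -0.00485 in that order. In chondrocytes, pairs of different donors reached 0.352, inside the range for the same donor (0.302 to 0.663). Libraries were thus paired by donor in all but synoviocytes, though in chondrocytes not every donor stood apart. The main fits did not use this pairing, so their standard errors include the spread between donors. Only the fits with the block used it. With the labels read as the donor of the MSC, libraries are separate samples by that donor. In joint cells, p-values then measure the spread between media on 1 culture source, except in the test of the horse. Intervals, and a floor of 3 counts, cover counting error only.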

Additional observations from a re-analysis of the deposited data

How the results depend on the processing

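With the MSC donor as a replicate block, 1 member (GSTM3) was called in macrophages between STING-MSC-CM and resting MSC-CM and 2 (GSTM3 and SOD2) against TLR-MSC-CM, where 0 were called without it, and the block changed no other count of members. Of 331 counts of members recomputed under other settings, 329 were equal to the count of the report or within a ratio of 1.5 of it. Small changes in count thus pass this rule. The counts of members with an unadjusted p under 0.05 were less stable: 270 stayed the same and 30 moved. GCLM in chondrocytes against synoviocytes, not called in any case, turned from 0.03 to -0.21 without the chondrocyte library with PC medium (range -0.21 to 0.21 over left-out libraries). SRXN1 in the same comparison turned from -0.08 to 0.15 without the chondrocyte library with ORC medium (range -0.24 to 0.15), the cause of which was not tested. Over the 13 comparisons of media or agonists, 78 of the 106 member values with an unadjusted p of 0.05 or more turned sign when 1 library was left out, and 0 of the 8 values under 0.05 did. HMOX1 in MSC with the STING agonist was -0.20 with the replicate block and -0.69 to 0.70 over left-out libraries, SOD2 there was -1.06 to 0.39, and SOD2 in chondrocytes with TLR-MSC-CM was -0.25 to 0.46. The number of all genes called with a medium or agonist depended on the tool more than that of members did. In MSC, DESeq2 called 52 genes with the TLR3 agonist and 95 with the STING agonist, 1 between the agonists, 2 in synoviocytes with TLR-MSC-CM, 5 in macrophages with STING-MSC-CM and 33 between the activated media, and the block called 2 after the STING agonist in MSC, 2 in chondrocytes with STING-MSC-CM, 80 and 336 in those macrophage comparisons, where edgeR without the block called 0. DESeq2 called 1, 2 and 4 genes in 3 of the 6 interactions, and edgeR without a filter on low counts called 1 in synoviocytes with TLR-MSC-CM. With 1 library left out, between 0 and 51 genes were called in MSC with the TLR3 agonist and up to 2 in an interaction. The number of macrophage members that differed by MSC donor was 2 of 8 when libraries were scaled by their totals only.

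With 3 libraries per condition, 1 horse per joint cell type and 1 library each with no addition and cytokines alone, cytokine effects were not tested, and the other comparisons rest on few samples.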

Other observations

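The genes whose levels followed those of a member most closely were looked up among 11591 genes named by symbol, as Pearson's r of log2(CPM + 1) over the 33 joint cell libraries after the mean of each cell type was subtracted. These values are a description: the points share libraries, cultures and media. SOD2 was followed most closely by HSD11B1, which regenerates active glucocorticoid (r = 0.95), and by the metal importer SLC39A14 (r = 0.95). SOD3 was followed by PAPLN (r = 0.92) and by MMP13, a collagenase of cartilage breakdown (r = 0.91). HMOX1 was followed by the mitochondrial protease LONP1 (r = 0.89) and by GSTO1 (r = 0.87), and SRXN1 by CYBA, a subunit of NADPH oxidase (r = 0.91). NQO1 was followed by NAAA and AGTRAP (r = 0.87 for both), GCLM by PIK3CD (r = 0.86), and GSTM3 by ITGA7 and SLC25A39 (r = 0.86 for both). GCLC and SOD1 had no gene above r = 0.81. Between members, r was 0.83 for SOD2 and SOD3, 0.80 for NQO1 and SRXN1, 0.79 for SOD2 and NQO1 and 0.77 for HMOX1 and SRXN1.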
